A study of Homo sapiens with 8 samples.

Results

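The genes described here are 6 claudins (CLDN1, CLDN2, CLDN3, CLDN4, CLDN7 and CLDN12), the scaffolds TJP1 and TJP3 and the junctional adhesion molecule F11R, which were chosen by name as genes of the tight junction. All 9 are listed among the 25192 gene symbols of the mRNA sequencing data. Messenger RNA was measured in 2 human colorectal cancer cell lines, HT29 and SW480, both of which carry mutant APC. Each line was transfected with control siRNA, directed against firefly luciferase, or with PRDX2 siRNA, directed against the mRNA of peroxiredoxin II (PrxII), a thioredoxin-dependent peroxidase, and was harvested 36 h later. The 4 groups hold 2 libraries each, 8 in all. The study calls the HT29 pairs duplicate experiments. The sources used here do not say which PRDX2 siRNA was sequenced or whether the duplicates of either line were separate transfections, so the p-values measure only the spread between these libraries, which may be technical. Both lines are tumour lines grown as cultures, and the mRNA level says nothing of whether a junction had formed. In cultures sequenced in bulk, fewer cells with a transcript and less of it per cell cannot be told apart.

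Tight junctions seal the space between neighbouring epithelial cells. Claudins are membrane proteins whose extracellular loops meet those of the next cell and set which ions pass, with sealing members such as CLDN1, CLDN3, CLDN4 and CLDN7 and the cation pore CLDN2. On the inner side of the membrane the ZO proteins ZO-1 (TJP1) and ZO-3 (TJP3) bind the tails of most claudins and tie them to actin, and JAM-A (F11R) is an immunoglobulin-like adhesion molecule of the same contacts. CLDN12 differs from the classic claudins in that its tail lacks the usual ZO-binding end. In the colon, CLDN3, CLDN4 and CLDN7 are abundant in the epithelium, and CLDN2 belongs mainly to crypts and leaky epithelia.

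On GRCh37 the 9 genes lie on 7 chromosomes. CLDN3 (chr7:73183327-73184600, minus strand) and CLDN4 (chr7:73213872-73247020, plus strand) are neighbours that point away from each other, with 60.7 kb between their RefSeq starts, and CLDN12 (chr7:90013035-90142716, plus strand) lies on the same chromosome. CLDN1 is at chr3:190023496-190040235 (minus strand), CLDN2 at chrX:106143394-106174091 (plus strand), CLDN7 at chr17:7163222-7167302 (minus strand), TJP1 at chr15:29991571-30261118 (minus strand), TJP3 at chr19:3708360-3750811 (plus strand) and F11R at chr1:160965001-160991133 (minus strand). Promoter sequences of 8 members, 250 bases before to 50 bases after the gene start, were taken from RefSeq (GRCh38.p14) and placed on GRCh37 by exact match. For CLDN4 the RefSeq start is inside the annotated span given above. The promoters of 4 members are printed 5′ to 3′ on the strand of the gene, namely the neighbours CLDN3 and CLDN4, CLDN2 with the widest difference between the lines, and TJP1. Capitals mark CAGGTG, an E-box that repressors of the Snail and ZEB families can bind.
CLDN3, chr7:73184551-73184850: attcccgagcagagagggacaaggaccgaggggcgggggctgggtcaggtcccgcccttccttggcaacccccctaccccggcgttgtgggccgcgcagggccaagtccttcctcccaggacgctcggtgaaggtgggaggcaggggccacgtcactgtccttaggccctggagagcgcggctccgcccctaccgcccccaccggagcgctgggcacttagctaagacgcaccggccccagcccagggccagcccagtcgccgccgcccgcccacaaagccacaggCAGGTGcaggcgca
CLDN4, chr7:73245076-73245375: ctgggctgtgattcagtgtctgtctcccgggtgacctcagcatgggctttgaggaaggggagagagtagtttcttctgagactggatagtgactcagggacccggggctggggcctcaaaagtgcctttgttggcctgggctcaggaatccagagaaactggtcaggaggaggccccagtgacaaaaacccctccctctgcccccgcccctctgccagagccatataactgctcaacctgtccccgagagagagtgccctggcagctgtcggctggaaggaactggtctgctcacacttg
CLDN2, chrX:106143144-106143443: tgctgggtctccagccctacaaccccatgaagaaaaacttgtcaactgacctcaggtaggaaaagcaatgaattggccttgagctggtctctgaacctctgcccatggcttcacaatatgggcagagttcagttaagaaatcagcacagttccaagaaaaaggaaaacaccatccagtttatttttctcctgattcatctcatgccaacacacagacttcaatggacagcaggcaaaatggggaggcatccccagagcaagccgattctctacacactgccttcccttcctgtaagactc
TJP1, chr15:30261203-30261502: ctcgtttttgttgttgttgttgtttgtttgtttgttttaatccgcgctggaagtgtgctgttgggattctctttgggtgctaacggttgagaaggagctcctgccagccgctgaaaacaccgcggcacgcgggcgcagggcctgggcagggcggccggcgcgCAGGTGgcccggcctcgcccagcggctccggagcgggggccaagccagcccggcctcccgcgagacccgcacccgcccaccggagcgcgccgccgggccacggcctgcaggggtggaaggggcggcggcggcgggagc
CAGGTG, searched on both strands, is in 2 of the 8 member promoters, at position 37 after the start in CLDN3 and at position -88 in TJP1, and in 20.6% of the 35116 promoters of the same length. The grainyhead motif AACCNGTT (both strands, 1.73% of all promoters) and the TCF motif CTTTGAT (both strands, 2.62%) are in 0 of the 8. These matches describe letters in a window and say nothing of binding. The GC content of the member promoters runs from 47.33% in CLDN2 to 72% in CLDN3, with a median of 58.67% over all promoters.

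The expected counts of a library summed to between 8857442 and 10164137. A gene with 3 counts thus stood at 0.295 to 0.339 on the CPM scale, which divides each count by the library total. PRDX2, the targeted gene, measured 331 and 343 TPM (a level scaled by transcript length and library total) in the HT29 control libraries and 193 and 194 TPM with PRDX2 siRNA, a log2 fold change of -0.87. In SW480 cells it measured 482 and 560 TPM in the controls and 169 and 172 TPM with PRDX2 siRNA, a log2 fold change of -1.70. The 8 epithelial markers summed to between 16247 and 17588 TPM in HT29 and between 9875 and 10926 TPM in SW480 libraries, mainly through KRT8 and KRT18. Of these 8, 0 were under 2 TPM in HT29 and 1 in SW480 libraries. KRT20 measured 0.87 and 0.79 TPM in SW480 and 559 and 546 TPM in HT29 controls. CDH1 measured 11.98 and 12.49 TPM in SW480 and 263 and 253 TPM in HT29 controls. By the test of the lines given below, 6 of the 8 were higher in HT29 and 1 in SW480 cells. The 7 fibroblast markers summed to at most 12.65 TPM, with 7 of them under 2 TPM in HT29 and 6 in SW480 libraries. The 5 endothelial markers summed to at most 1.96 TPM. The immune marker list reached 4436 to 4662 TPM in HT29 libraries through LYZ, with PTPRC and MS4A1 listed at 0. The SW480 control duplicates stand apart from each other: their counts differed by a chi-square of 10.64 per degree of freedom, against 1.42, 1.68 and 2.08 in the other pairs. Across genes the log2 ratio of this pair fell with the GC content of the transcripts (Spearman's rank correlation -0.70, against -0.13 to -0.19 elsewhere).

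In HT29 cells, CLDN4 was the most abundant of the 9 mRNAs. TPM, which is corrected for transcript length and so can be compared between genes, was 606 and 616 for CLDN4 in the control duplicates. CLDN7 followed at 270 and 270 TPM and CLDN3 at 239 and 245 TPM. F11R measured 165 and 164 TPM and TJP1 99.4 and 93.4 TPM. The lowest 4 members lay close together, with CLDN12 at 58.1 and 61.8 TPM, TJP3 at 49.4 and 54.3 TPM, CLDN1 at 46.3 and 45.7 TPM and CLDN2 at 40.0 and 40.7 TPM. No neighbours in this order overlapped between their duplicates.

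SW480 cells had a different order. CLDN4 was again first, at 186 and 241 TPM, but CLDN7 at 104 and 127 TPM overlapped with CLDN1 at 117 and 101.1 TPM. TJP1 came next at 85.7 and 75.6 TPM. CLDN12 (52.0 and 41.2 TPM), F11R (43.9 and 41.6 TPM) and CLDN3 (28.5 and 48.7 TPM) did not differ beyond their spread. TJP3 measured 5.21 and 6.81 TPM. CLDN2 was near the detection floor with 3 and 2 counts in the controls and 1 and 2 counts with PRDX2 siRNA.

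**Figure D1:**
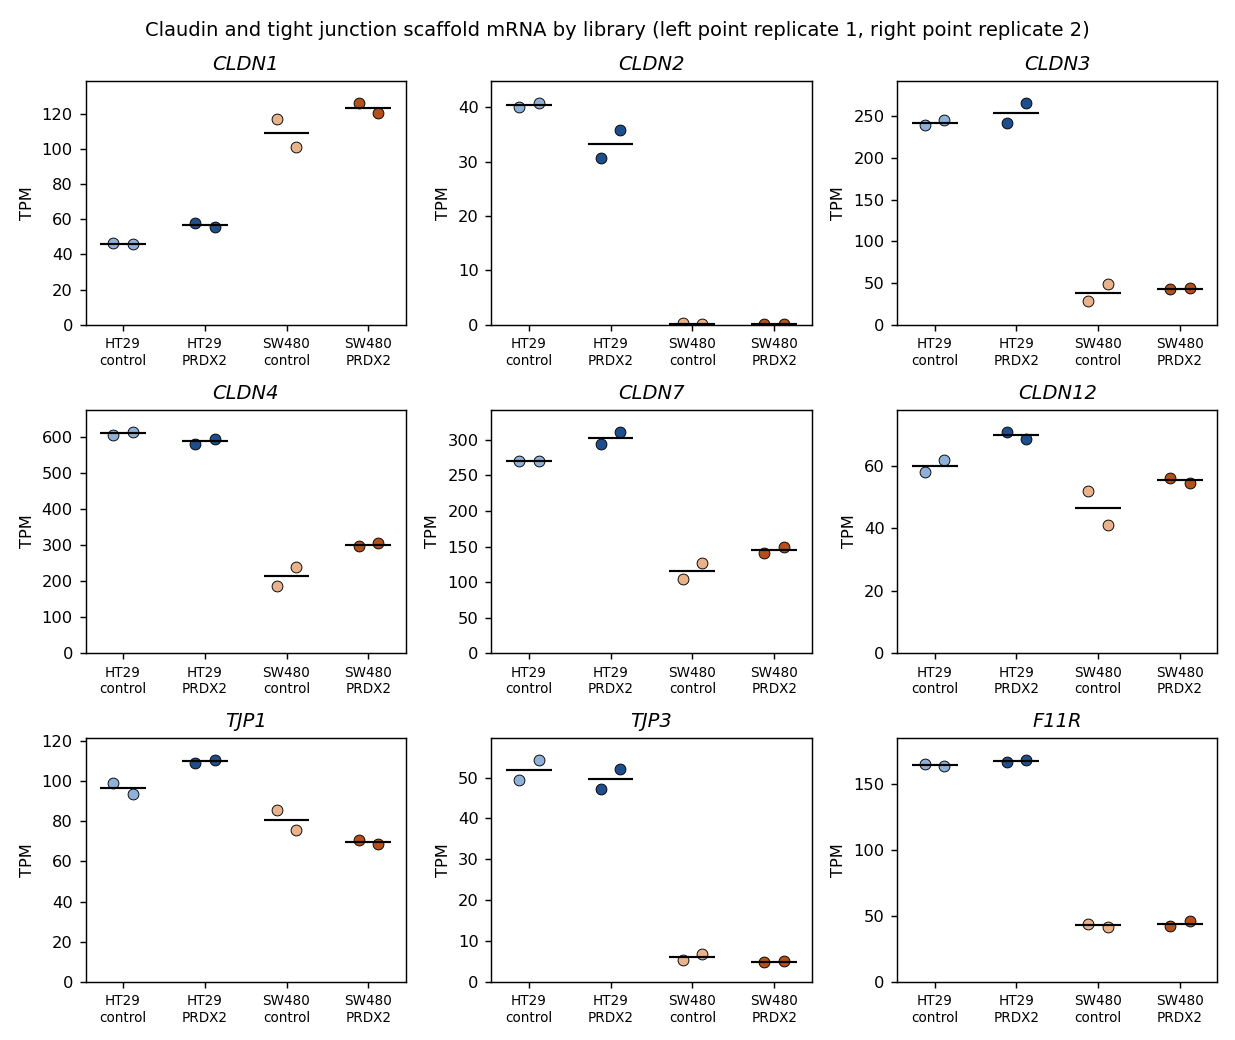
Level of each of the 9 genes in TPM (linear axis from 0) in each of the 8 libraries, with points for libraries and bars for the mean of 2. CLDN1 is the gene that is higher in SW480 than in HT29 libraries, and CLDN2 is present in HT29 libraries (30.7 to 40.7 TPM) and near 0 in SW480 libraries.

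The makeup of the claudin pool differed in the same way. Summed TPM of the 6 claudins was 1259 and 1279 in the HT29 controls and 488 and 559 in the SW480 controls. CLDN1 made up 3.68% and 3.57% of this sum in HT29 controls, and 24.0% and 18.1% in SW480 controls. CLDN3 went the other way, with 19.0% and 19.2% in HT29 and 5.83% and 8.71% in SW480 controls. By TPM the share of CLDN7 was alike in both lines, at 21.4% and 21.1% in HT29 and 21.3% and 22.8% in SW480 controls. By CPM it was 18.6% and 18.4% in HT29 and 14.8% and 17.1% in SW480 controls. With PRDX2 siRNA, CLDN4 made up 45.6% and 44.7% of the HT29 pool, below the 48.1% and 48.2% of the controls. In SW480 cells CLDN4 made up 44.9% and 45.3% with PRDX2 siRNA, above the 38.2% and 43.0% of the controls. These SW480 controls lay further apart than the higher of them lay from the libraries with PRDX2 siRNA. These shares are a description, since an exact permutation test of 2 against 2 libraries cannot go below p = 0.333. A claudin outside the chosen genes, CLDN11, measured 134 and 130 TPM in SW480 controls and 0.16 and 0.25 TPM in HT29 controls, more than CLDN1 in the former. Added to the sum, CLDN11 made up 21.5% and 18.9% of it in SW480 controls and 0.013% and 0.020% in HT29 controls. The shares above leave it out, and those in SW480 cells would be lower with it.

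**Figure D2:**
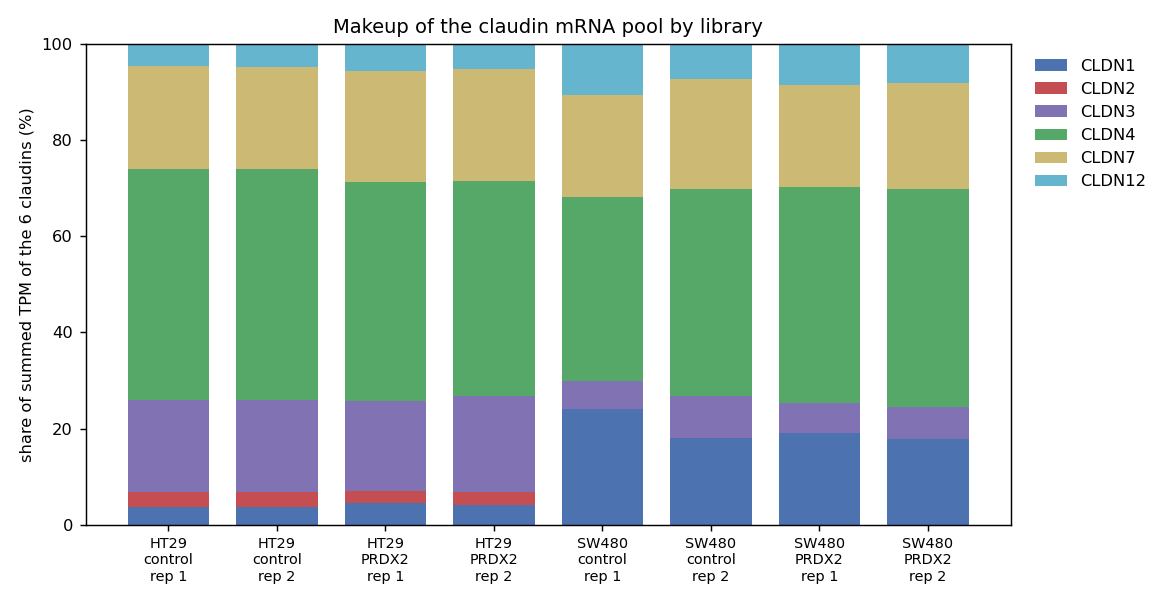
Share of each of the 6 claudins in their summed TPM (%), 1 bar per library. The CLDN1 share is 3.57% to 4.53% in the HT29 libraries and 17.8% to 24.0% in the SW480 libraries, and the CLDN2 share is at most 0.05% in SW480.

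The first comparison asked how the lines differ before PRDX2 is lowered. The methods of the study describe library preparation and sequencing for the HT29 samples only. A difference between the lines thus cannot be told apart from one between their sets of libraries. In the control libraries, 8 members were higher in HT29 and CLDN1 was higher in SW480 cells, with all 9 past the threshold of an adjusted p under 0.05. Adjusted p-values come from the quasi-likelihood test of edgeR, adjusted by the method of Benjamini and Hochberg over the 14346 genes with 10 counts or more in 2 or more libraries of the comparison. Differences are log2 values of HT29 minus SW480 with their standard errors (SE). Of all genes tested, 31.8% were called higher and 35.7% lower in HT29 cells by the same rule, so a call by itself is common in this contrast. The median difference of the 9 members was 1.64, against -0.04 over all genes tested. This is a description, since the members were chosen with earlier results of these data known.

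The pore claudin CLDN2 had the widest gap. The HT29 control libraries together held 1051 counts and the SW480 control libraries 5, a depth-adjusted ratio of 198 (95% exact interval for counting error only, 84.4 to 610). Among the sealing claudins, CLDN3 was 6.82-fold higher in HT29 cells (log2 difference 2.77, SE 0.21, adjusted p = 6.69e-06). The size of this difference moved with the SW480 control library left out, to 2.35 without replicate 1 and 3.16 without replicate 2. CLDN4, its neighbour on the chromosome, was 3.13-fold higher (1.64, SE 0.13, adjusted p = 9.36e-06). CLDN7 was 2.52-fold higher (1.33, SE 0.13, adjusted p = 2.28e-05). CLDN1 was lower in HT29 cells, by a log2 difference of -1.12 (SE 0.11, adjusted p = 3.95e-05). CLDN12 differed least among the claudins (0.49, SE 0.13, adjusted p = 0.00977).

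Of the scaffolds, TJP3 was 9.37-fold higher in HT29 cells (3.23, SE 0.17, adjusted p = 6.42e-07), while TJP1 was 1.32-fold higher (0.40, SE 0.10, adjusted p = 0.00833). F11R was 4.20-fold higher (2.07, SE 0.10, adjusted p = 4.44e-07). The calls of the smallest differences rested on single libraries. Leaving out an HT29 control library ended the call of TJP1 (0.39 without replicate 1 and 0.47 without replicate 2) and, for replicate 2, that of CLDN12 (0.48), and without SW480 control replicate 2 they were 0.25 and 0.27. The interval of TJP1 in the full comparison was 0.16 to 0.63.

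**Figure D3:**
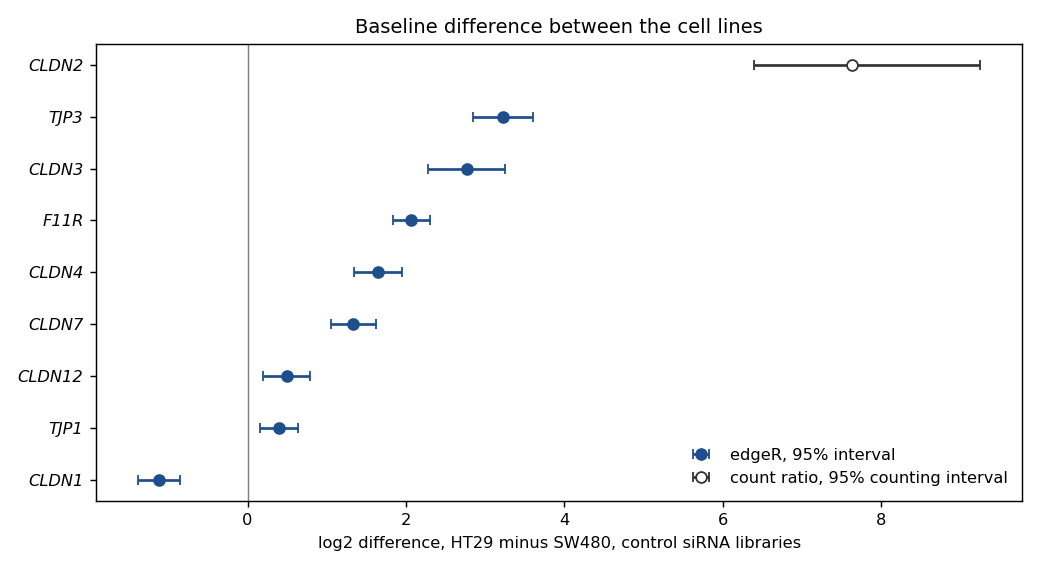
Difference between the lines in the control libraries, on a log2 axis (HT29 minus SW480), for the 9 genes, with 95% intervals. For CLDN2 (open point) the count ratio and its counting interval are shown. The differences run from -1.12 for CLDN1 to 3.23 for TJP3, beyond which lies CLDN2.

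The other tight junction genes were called in both directions. Of 66 listed, 63 are in the files and 51 could be tested. Among these 25 were higher in HT29 and 16 in SW480 cells, beside 31.8% and 35.7% of all genes tested, with a median difference of 0.17. The list holds 15 other claudins, of which 5 were tested. Of these 1 was higher in HT29 and 3 in SW480 cells, with a median of -0.81. The membrane protein ILDR2 of tricellular contacts (459 counts against 6, ratio 81.4, counting interval 37.1 to 223), the angiomotin family scaffold AMOTL1 (1370 counts against 0, at least 486-fold, with a floor of 3 counts over the group) and CLDN11 (2886 counts against 5, ratio 614, 263 to 1892) were higher in SW480 cells. The small GTPase RAB3B was also higher there, with a log2 difference of -5.80. The scaffold cingulin (CGN, 2.50) and the kinase WNK4 (2.72), which acts on claudin phosphorylation, were higher in HT29 cells. Occludin (OCLN), the other classic tight junction membrane protein, measured 15.62 to 15.96 TPM in HT29 and 15.4 to 16.9 TPM in SW480 controls and was not called (0.10, adjusted p = 0.482).

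The list of transcription factors known to act on claudin genes held 20 genes, of which 18 were tested. Of these 13 were higher in HT29 and 5 in SW480 cells, with a median difference of 1.24. Over all genes tested the shares were 31.8% and 35.7%. The grainyhead factors GRHL2 (38.8 and 38.4 TPM against 0.05 and 0.13, count ratio 426, counting interval 166 to 1564) and GRHL3 (ratio 87.7, 29.7 to 428) were higher in HT29 cells. The repressors SNAI2 (91 counts against 0, at least 32.3-fold) and ZEB1 (15.95 and 14.2 TPM against 0.15 and 0.14, count ratio 98.4, 49.7 to 229) were higher in SW480 cells. The intestinal factor CDX2 was also among the 5 higher in SW480 cells, at 18.8 and 22.3 TPM against 8.58 and 8.23 in HT29 controls. E-cadherin (CDH1) of the adherens junction measured 263 and 253 TPM in HT29 and 11.98 and 12.49 TPM in SW480 controls, a log2 difference of 4.52. Whether these factors take part in the claudin differences was not tested.

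The second comparison asked what PRDX2 siRNA did in HT29 cells. Of the 9 members, 3 rose (CLDN1, CLDN12 and TJP1), 2 fell (CLDN2 and CLDN4) and 4 were not called. Among the 12961 genes tested, 7.76% were called higher and 9.82% lower. The largest member change, the fall of CLDN2, left 0.784 of the control level, against 0.549 for PRDX2. The median over the members was 0.00, as over all genes tested. Of the 8 epithelial markers, 2 rose (KRT20 by 0.39), 3 fell (KRT8, KRT18 and KRT19) and 3 were not called. Their summed level, carried mainly by KRT8 and KRT18, was 16247 and 16349 TPM with PRDX2 siRNA against 17491 and 17588 TPM in the controls, and its part in the member values was not tested.

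CLDN1 rose from 46.3 and 45.7 TPM to 57.8 and 55.7 TPM, with no overlap between the duplicates. Its log2 fold change was 0.24 (SE 0.05, adjusted p = 0.00384). CLDN12 measured 58.1 and 61.8 TPM in the controls and 71.0 and 68.7 TPM with PRDX2 siRNA, a change of 0.16 (SE 0.05, adjusted p = 0.0400). CLDN2 fell from 40.0 and 40.7 TPM to 30.7 and 35.8 TPM (-0.35, SE 0.07, adjusted p = 0.00291). Its duplicates with PRDX2 siRNA lay further apart on the log scale than those of any other member in that group, though both were under the controls. CLDN4, the most abundant member, fell from 606 and 616 TPM to 583 and 597 TPM (-0.12, SE 0.03, adjusted p = 0.00669). Its duplicates differed by less than this change in both groups.

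CLDN7 measured 270 and 270 TPM in the controls and 295 and 311 TPM with PRDX2 siRNA, but missed the threshold (0.10, SE 0.04, adjusted p = 0.0904). CLDN3 measured 239 and 245 TPM and then 241 and 266 TPM, which overlap (0.00, 95% interval -0.11 to 0.11). Of the scaffolds, TJP1 rose from 99.4 and 93.4 TPM to 109 and 111 TPM (0.12, SE 0.03, adjusted p = 0.0183). TJP3 overlapped between the groups, at 49.4 and 54.3 TPM and then 47.3 and 52.2 TPM (-0.12, SE 0.06, adjusted p = 0.206). F11R measured 165 and 164 TPM and then 167 and 168 TPM, and its log2 fold change was -0.04 from the counts (adjusted p = 0.454) and 0.03 from log2(TPM + 1). The 95% interval of the former was -0.10 to 0.03.

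How many members were called depended on the tool. DESeq2 called 1 of the 9 (CLDN4, adjusted p = 0.0435) and 6.72% of all genes. At an unadjusted p under 0.05 it had 4 members and 1853 of the 12961 genes, against 6 members and 3909 genes in edgeR. A fit of all 8 libraries together called 0 members. limma on log2(TPM + 1) called 4 members higher (CLDN1, CLDN7, CLDN12 and TJP1) and 0 lower, with CLDN2 at -0.28 (adjusted p = 0.0629) and CLDN4 at -0.05 (adjusted p = 0.242). In it 9.66% of all genes were called higher and 4.23% lower, and the median of all genes tested was 0.06. With the GC offset, CLDN7 (0.11, adjusted p = 0.0240) joined the 5, and 21.8% of all genes were called. CLDN1 kept its call without each library in turn, whereas without PRDX2 siRNA replicate 1 CLDN2 (-0.23), CLDN4 (-0.09) and CLDN12 (0.14) lost theirs, without PRDX2 siRNA replicate 2 TJP1 (0.11) and CLDN12 (0.18) did, without control replicate 2 TJP1 (0.08) did, and without control replicate 1 CLDN12 (0.11) did.

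Of the other tight junction genes, 45 were tested in HT29 cells, of which 5 rose and 3 fell, beside the 7.76% and 9.82% of all genes. Myosin light chain kinase (MYLK) rose from 15.5 and 15.6 TPM to 21.2 and 22.3 TPM (0.42, SE 0.06). The guanine nucleotide exchange factors ARHGEF11 (0.25, SE 0.05) and ARHGEF2 (0.21, SE 0.04) and the kinase WNK1 (0.20) rose too. The scaffold AMOTL2 (-0.20), the tricellular protein LSR (-0.19) and the kinase ROCK2 (-0.10), which acts on myosin, fell. The median of these 45 genes was 0.05. Of 17 adherens junction and desmosome genes tested, 3 rose and 2 fell, with desmoplakin (DSP) rising from 51.1 and 50.02 TPM to 73.9 and 71.8 TPM (0.47, SE 0.04) and nectin-2 (PVRL2) falling (-0.25). Of 16 claudin regulators tested, 4 rose and 1 fell, with the intestinal factor CDX2 at 0.58 (SE 0.14) and GRHL3 at -0.49 (SE 0.14).

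The third comparison was the same contrast in SW480 cells. Of the 8 members with enough counts, 0 were called by edgeR, where 3.3% of the 14112 genes tested were called in either direction. At an unadjusted p under 0.05 there were 2 members, CLDN4 and TJP1, beside 3447 of the 14112 genes. In DESeq2 0 members were called and 2 had an unadjusted p under 0.05, beside 2436 of all genes. CLDN2, at 1 to 3 counts a library, was not tested.

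CLDN4 measured 186 and 241 TPM in the controls and 298 and 306 TPM with PRDX2 siRNA, a log2 fold change of 0.41 (SE 0.14, adjusted p = 0.119). CLDN7 measured 104 and 127 TPM and then 141 and 150 TPM (0.24, SE 0.13, adjusted p = 0.278). In both genes the controls lay further apart than the libraries with PRDX2 siRNA, and the groups did not overlap. CLDN1 (117 and 101.1 TPM, then 126 and 120 TPM) had a log2 fold change of 0.09 (SE 0.11), and CLDN12 (52.0 and 41.2 TPM, then 56.2 and 54.7 TPM) of 0.16 (SE 0.13). CLDN3 measured 28.5 and 48.7 TPM in the controls, on either side of the 42.3 and 44.5 TPM with PRDX2 siRNA (0.08, SE 0.23). TJP1 measured 85.7 and 75.6 TPM and then 70.9 and 68.8 TPM (-0.30, SE 0.11, adjusted p = 0.144). TJP3 measured 5.21 and 6.81 TPM and then 4.75 and 5.12 TPM (-0.38, SE 0.21, adjusted p = 0.301). F11R measured 43.9 and 41.6 TPM and then 42.4 and 45.9 TPM, with an interval of -0.29 to 0.21 around a log2 fold change of -0.04.

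The spread in these values lay mainly in the SW480 control pair. Over the 8 members with enough counts the absolute log2 difference between these duplicates, on the CPM scale, had a median of 0.31. In the other pairs the median over the members was 0.03, 0.05 and 0.06. CLDN3, whose transcripts have the highest GC content of the 9 genes (69.2%), was lower in replicate 1 than in replicate 2 by a log2 difference of -0.79. CLDN12, with the lowest (40.1%), was higher in replicate 1 by 0.33. Over the 8 members the difference and the GC content had a Pearson r of -0.99, which describes 1 pair of libraries and carries no test.

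**Figure D4:**
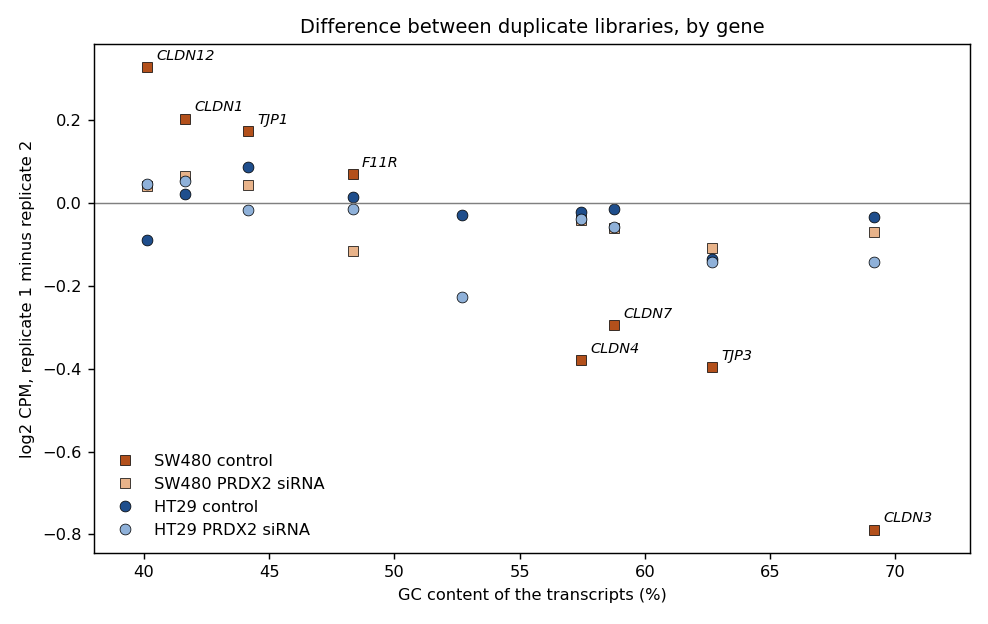
Log2 difference in CPM between replicate 1 and replicate 2 of each group (vertical axis) against the GC content of the transcripts (%, horizontal axis), 1 point per gene and group. The SW480 control pair runs from 0.33 for CLDN12 to -0.79 for CLDN3, and the other pairs stay within 0.23 of 0.

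The sign of CLDN1 and CLDN3 in SW480 cells, and which members were called, turned on the control library that was left out. Without control replicate 1, CLDN1 (0.19), CLDN4 (0.23) and CLDN12 (0.33) were called higher and TJP1 (-0.21) and TJP3 (-0.56) lower, and CLDN3 was at -0.26. In that fit 11.4% of all genes were called higher and 13.1% lower. Without control replicate 2, CLDN3 (0.52), CLDN4 (0.61) and CLDN7 (0.39) were called higher and TJP1 (-0.38) lower, and CLDN1 was at -0.02, where 26.0% of all genes were called higher and 26.8% lower. With GC content as an offset in the fit, CLDN1 (0.26, SE 0.06), CLDN4 (0.25, SE 0.07) and CLDN12 (0.37, SE 0.06) were called higher and TJP3 (-0.65, SE 0.17) lower. With this offset 8.37% of all genes were called higher and 9.85% lower, CLDN3 was at -0.30 and TJP1 at -0.17. CLDN4 was above and TJP1 below the controls in each of the 12 alternatives, with a call in 6 and 3 of them. Whether GC content accounts for these moves was not tested.

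**Figure D5:**
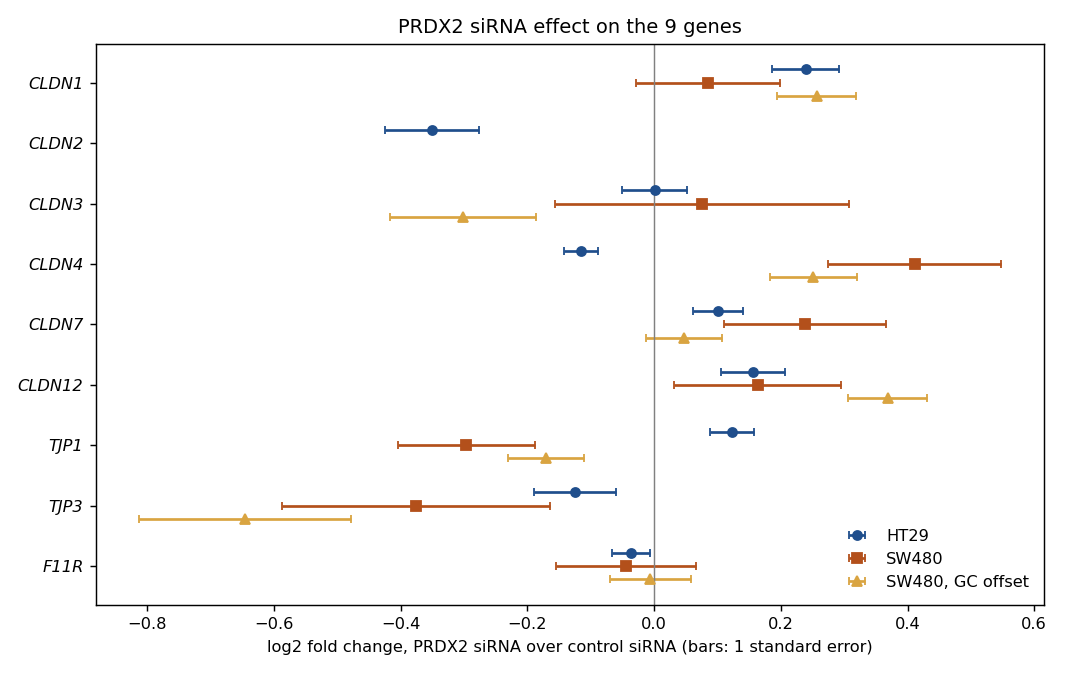
Log2 fold change of PRDX2 siRNA over control siRNA for the 9 genes, with bars of 1 standard error, in HT29 cells, in SW480 cells, and in SW480 cells with an offset for GC content. CLDN2 is shown for HT29 only. In HT29 the values run from -0.35 (CLDN2) to 0.24 (CLDN1), and in SW480 from -0.38 (TJP3) to 0.41 (CLDN4) with wider errors.

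Of the 51 other tight junction genes tested in SW480 cells, 0 rose and 2 fell, beside 172 and 294 of all 14112 genes tested. The 2 were the polarity scaffold MPP5, also named PALS1 (-0.85, SE 0.15), and RAB3B (-0.79, SE 0.11). MPP5 measured 90.9 and 66.0 TPM in the controls and 46.0 and 46.8 TPM with PRDX2 siRNA. Of 17 adherens junction and desmosome genes tested, 0 rose and 1 fell, plakophilin-2 (PKP2, -0.48, SE 0.11). Of 14 claudin regulators tested, 1 rose and 0 fell. The ETS factor EHF rose from 133 and 112 TPM to 205 and 199 TPM (0.63, SE 0.11).

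The fourth comparison tested whether the effect of PRDX2 siRNA differed between the lines, in 1 fit of all 8 libraries. Line and set of libraries cannot be told apart here either. Of the members, 0 passed the threshold, where 1.12% of 14772 genes did. An unadjusted p under 0.05 was reached by 2835 of these genes, among them 2 members. These were the sealing claudin CLDN4, with a difference (HT29 minus SW480) of -0.52 (SE 0.14, adjusted p = 0.0996), and the scaffold TJP1 with 0.42 (SE 0.10, adjusted p = 0.0786). CLDN4 was lower than the controls in both HT29 libraries with PRDX2 siRNA and higher in both SW480 libraries. TJP1 was the reverse, and neither gene was called in SW480 cells. PRDX2 itself was left at 0.549 of the control level in HT29 and 0.308 in SW480 cells. The part of this in the member values was not tested. For CLDN1 (0.15, 95% interval -0.10 to 0.41), CLDN12 (-0.01, -0.32 to 0.30) and F11R (0.01, -0.21 to 0.23) the intervals span 0. Those of CLDN3 (-0.07, -0.60 to 0.46), CLDN7 (-0.13, -0.42 to 0.15) and TJP3 (0.26, -0.20 to 0.71) do too. CLDN2 cannot be compared, since its SW480 libraries are at the floor.

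Of 15 alternatives, 10 called 0 members, and CLDN4 and TJP1 were called in 5 each. DESeq2 called both (-0.53, adjusted p = 0.0269, and 0.42, adjusted p = 0.0412), with 2.11% of all genes. With the GC offset, in which 7.27% of all genes were called, CLDN4 (-0.36), TJP1 (0.26) and CLDN3 (0.38) passed. Without SW480 control replicate 1 CLDN4 (-0.35) and TJP1 (0.33) passed, with 9.32% of all genes. Without SW480 control replicate 2 these (-0.74 and 0.49) passed with CLDN1 (0.24), CLDN3 (-0.54) and CLDN7 (-0.30), and so did 35.7% of all genes. Of the other 51 tight junction genes, MYLK was the 1 called (0.79, SE 0.12, adjusted p = 0.0168).

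This comparison and the contrast of the lines share control libraries with the comparisons within each line, so their values are not independent of each other. Reads can also be shared with overlapping genes on the same strand and, since the library kit does not mark strand, on the opposite strand. GTPBP10 and CDK14 below are on the strand of the member, and RIPPLY1, ELP5 and APBA3 on the opposite strand. Of the exon bases of CLDN2, 9.99% overlap RIPPLY1, which is at 0 to 0.23 TPM in these libraries. For CLDN12 the overlap is 5.17% with GTPBP10 (13.6 to 22.6 TPM) and 3% with CDK14 (0.13 to 1.77 TPM), for CLDN7 1.52% with ELP5 (31.7 to 97.6 TPM) and for TJP3 1.06% with APBA3 (6.24 to 17.1 TPM). Overlaps with annotated genes that are not among the symbols analysed here have no level to set beside them. The widest are 36.6% of the exon bases of F11R and 10.8% of those of CLDN7, each with an unnamed protein-coding gene on the same strand, and 7.92% of CLDN12 with PTTG1IP2.

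As a description of pattern, the gene with the highest Pearson correlation of log2 CPM with a member over the 8 libraries was taken from 11803 genes with a mean of at least 5 CPM. It was BCAS1 for CLDN2 (r = 0.9997), CTSD for CLDN4 (0.9996) and SYNE2 for CLDN7 (0.9990). It was CPD for CLDN12 (0.9911), MTMR2 for TJP1 (0.9962), GOLGA6L9 for TJP3 (0.9995) and AKR1B10 for F11R (0.9998). With 2 cell lines in the 8 libraries, any gene that differs between the lines scores high, and 721 genes passed r = 0.99 with F11R and 2 with CLDN12.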

How the data were processed

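Messenger RNA of 8 libraries (HT29 and SW480 cells, control or PRDX2 siRNA, 2 each by the labels) was analysed from gene tables with 25192 symbols. The authors trimmed paired-end reads after a FastQC check, aligned them to hg19 with MapSplice and quantified genes with RSEM, a description given for the HT29 libraries. The deposited expected count is RSEM's estimate of reads per gene, and summed to 8857442 to 10164137 per library, so intervals and floors cover counting error only. The deposited TPM values are scaled by transcript length to the same total in every library. The deposited FPKM values and transcript lengths were not used in tests.

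Expected counts were rounded and tested with edgeR 4.0.16 (glmQLFTest, TMM, at least 10 counts in at least 2 libraries, Benjamini-Hochberg, threshold 0.05). Alternatives were RLE normalization, no filter, DESeq2 1.42.0, limma 3.58.1 on log2(TPM + 1), all 8 libraries, a replicate block, a loess offset for GC content (span 0.5, 95.31% of tested genes with a value) and leaving out each library. Scripts were tested on simulated data. The members and lists were chosen with earlier results of these data known. Besides the members, the text names PRDX2, up to 6 called genes per comparison from the other tight junction lists and up to 4 from the adherens junction, desmosome and regulator lists, by size of change, and the gene most like each member, of which some are not reported here. OCLN, CDH1, ROCK2 and the lists' marker genes named otherwise were chosen after their values were seen. Promoters come from RefSeq (GRCh38.p14).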

Additional observations from a re-analysis of the deposited data

Results flagged for a closer look

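Over all 8 libraries, 0 of the 9 members had an effect of PRDX2 siRNA that differed between the lines in edgeR's quasi-likelihood test. The adjustment was that of Benjamini-Hochberg over 14772 genes. At an unadjusted p under 0.05 there were 2 members, beside 2835 of all genes. DESeq2 called 2 members (CLDN4 and TJP1) and 2.11% of all genes. Of the genes on the accompanying lists, 4 differed by the same test in edgeR, which called 1.12% of all genes. These were 1 of 51 other tight junction genes, 2 of 17 adherens junction and desmosome genes, 0 of 18 claudin regulators and PRDX2. Each is given as the log2 effect in HT29 minus that in SW480 cells. PRDX2 itself differed by 0.84 (adjusted p = 0.0128), being lowered more in SW480 cells. MYLK, the kinase of myosin light chain, differed by 0.79 (adjusted p = 0.0168), with an effect of 0.42 in HT29 and -0.37 in SW480 cells, the latter not called. Desmoplakin (DSP) differed by 0.55 (adjusted p = 0.0202), with 0.47 in HT29 and -0.07 in SW480 cells. Plakophilin-2 (PKP2) differed by 0.53 (adjusted p = 0.0432), with 0.05 in HT29 and -0.48 in SW480 cells. All groups hold 2 libraries, too few to look for outlying libraries within a group.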

How the results depend on the processing

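In the contrast of the lines, all 9 members kept their direction in each alternative that gave a value. limma on log2(TPM + 1), which moves the median of all genes to -0.15, called 7 members, and fits without an HT29 control replicate called 7 or 6 of the 8 members left, since CLDN2 then failed the filter. Genes called moved from 2279 to 871 (DESeq2) and 185 (all 8 libraries) in HT29 cells, with 1 and 0 members called in place of 5. The GC offset (2708), the same with the block (3035) and the replicate block (2889) called 6 members each in HT29 cells. In SW480 cells 466 calls became 1727 (replicate block), 2415 (all 8 libraries), 214 (limma), 2458 (GC offset) and 3025 (GC offset with the replicate block), and the members called 1, 2, 0, 4 and 4. For the difference between the lines 166 became 267 (no filter), 311 (DESeq2), 103 (limma), 1024 (GC offset) and 932 (GC offset with the block), with 0, 2, 0, 3 and 2 members. Leaving out 1 library gave 1574 to 2030 genes and 2 to 4 members in HT29, 87 to 7364 genes and 0 to 5 members in SW480, and 6 to 5237 genes and 0 to 5 members for the difference. Without SW480 control replicate 2 the gene counts were the highest, while in SW480 cells 5 members were called without control replicate 1 and 4 without control replicate 2. These fits leave 1 library in a group, which is assumed to vary like the others. Where a sign turned, the member was not called by the reported test. In HT29, F11R was at 0.028 with limma and CLDN3 ran from -0.072 to 0.077 when single libraries were left out. In SW480, CLDN3 was at -0.30 (GC offset) and -0.29 (with the block), F11R at 0.045 with limma, and without single libraries CLDN1 ran from -0.017 to 0.19, CLDN3 from -0.26 to 0.52 and F11R from -0.10 to 0.015. In the difference, CLDN1 was at -0.043, CLDN3 at 0.38, CLDN7 at 0.065 and F11R at -0.049 with the GC offset, and at -0.043, 0.38, 0.064 and -0.049 with the block added, F11R at -0.016 with limma and CLDN12 at 0.00098 without the filter. Without single libraries CLDN3 ran from -0.54 to 0.26, CLDN7 from -0.30 to 0.0055, CLDN12 from -0.17 to 0.14 and F11R from -0.049 to 0.061. On the TPM scale limma also moved the split of all genes called, from 1006 higher and 1273 lower to 1252 and 548 in HT29, from 172 and 294 to 126 and 88 in SW480 cells and from 91 and 75 to 44 and 59 for the difference. The median of all genes in limma was 0.06 in HT29, 0.08 in SW480 cells and -0.02 for the difference. In edgeR it was -0.0005, 0.002 and 0.01. The cause of these moves was not tested. The replicate numbers are only names: deviations of same-numbered libraries correlated at 0.05 in HT29 and 0.08 in SW480 cells, and the replicate block called CLDN4 in SW480 and CLDN7 in HT29 cells in addition. By CPM in place of TPM, 23 of 24 claudin shares moved beyond the spread of duplicates. CLDN2 in SW480 cells is limited by depth, at 3 counts or fewer in each library.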
